A study of Mus musculus with 18 samples.

Results

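Genes of the mitochondrial respiratory chain were described across 6 groups of mouse cells. Members were all genes whose single annotated symbol begins with Nduf, Sdha to Sdhd, Uqcr, Cox4i, Cox5, Cox6, Cox7, Cox8 or Atp5, which gave 89 genes of the 19937 measured. Grouped by symbol alone, they comprise 36 genes counted as complex I subunits with 7 of its assembly factors, 4 genes of complex II, 8 of complex III, 17 of complex IV and 17 of complex V. Ndufa4 and Ndufa4l2 are counted with complex I by their names, which does not show that their proteins belong to it. The choice used names alone and no measured value. Where a gene has several probe sets, the one whose mean over the 18 arrays is highest stands for it. Values are log2 array values, so a difference of 1 is a 2-fold change, and levels are compared for the same probe set only.

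The data are 18 arrays, 3 for each group. EOS3F-24 2i converted is the partially reprogrammed line EOS3F-24 after culture with a MEK inhibitor at 2 μM and a GSK inhibitor at 12 μM in LIF medium. EOS3F-24 without this treatment is called the partial line here. EOS3F-28 and EOS3F-29 are the fully reprogrammed lines, and their mean is called full iPS cells. All these induced pluripotent stem (iPS) lines carry retroviral pMX vectors for Oct4, Klf4 and Sox2. J1 is an embryonic stem (ES) cell line, and the CD1 mouse embryonic fibroblasts (MEFs) were used at low passage. MEFs grew in serum medium, whereas J1 cells and iPS clones had LIF and a layer of arrested feeder cells. EOS3F-24, EOS3F-28 and EOS3F-29 were under puromycin selection (1 μg/mL), which is not listed for converted cells, J1 cells or MEFs. In comparisons with MEFs, culture and reprogramming therefore cannot be told apart. Nor can puromycin selection be told apart from 2i in converted against partial cells. In converted against full iPS cells, 2i, line and puromycin selection cannot be told apart. Nor can cell line and puromycin selection in full iPS against J1 cells. Each iPS group is a single line, and the labels do not say that replicate arrays came from separate cultures. Spread that is only technical may therefore be all that the p-values measure.

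The respiratory chain passes electrons from NADH (complex I) and succinate (complex II) through complex III and cytochrome c to oxygen at complex IV, and the proton gradient built on the way drives ATP synthesis by complex V. Nearly all subunits are encoded in the nucleus, and several of complex IV exist as a widely used form and a form typical of heart and muscle, lung or testis. Pluripotent cells are known for relying on glycolysis more than fibroblasts do, and naive and primed pluripotent states are known to differ in their use of respiration. RNA levels do not measure respiration.

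Promoters are shown for 5 members on which results below turn, Cox7a1, Cox6b2, Ndufa1, Ndufs6 and Sdhd, picked after their values were seen, and for the sister genes of Cox7a1 and Cox6b2. The windows are the 250 bases before the RefSeq start in GRCm38.p6, written 5′ to 3′ on the gene's strand, and capitals mark matches to the searched motifs TGCGCA (the core of the NRF1 site), CCGGAAG (ETS factors such as GABP), AAGATGG (YY1), AGGTCA (nuclear receptors such as ERR) and CACGTG (E-box), on either strand. Cox7a1, the heart and muscle form of its complex IV subunit, begins after chr7:30183921-30184170 on the plus strand, and Cox7a2, the widely used form, after chr9:79759854-79760103 on the minus strand. Neither window holds a match.
Cox7a1: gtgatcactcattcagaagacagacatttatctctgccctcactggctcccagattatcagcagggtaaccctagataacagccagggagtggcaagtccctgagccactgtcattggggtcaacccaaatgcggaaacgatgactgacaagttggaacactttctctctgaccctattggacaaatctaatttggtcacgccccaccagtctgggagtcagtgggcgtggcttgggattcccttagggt
Cox7a2: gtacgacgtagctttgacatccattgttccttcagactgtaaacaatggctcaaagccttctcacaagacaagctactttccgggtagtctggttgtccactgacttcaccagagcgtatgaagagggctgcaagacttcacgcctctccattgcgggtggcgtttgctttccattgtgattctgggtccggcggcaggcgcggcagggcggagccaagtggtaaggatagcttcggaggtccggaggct
Cox6b2, the testis form, has its window at chr7:4753095-4753344 on the minus strand, with no match, and the widely used Cox6b1 at chr7:30626115-30626364 on the minus strand, with CCGGAAG on the opposite strand.
Cox6b2: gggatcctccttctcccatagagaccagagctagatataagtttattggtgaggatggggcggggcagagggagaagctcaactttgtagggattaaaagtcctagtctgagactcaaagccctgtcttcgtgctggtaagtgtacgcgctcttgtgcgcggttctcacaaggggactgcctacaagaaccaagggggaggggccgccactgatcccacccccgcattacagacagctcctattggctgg
Cox6b1: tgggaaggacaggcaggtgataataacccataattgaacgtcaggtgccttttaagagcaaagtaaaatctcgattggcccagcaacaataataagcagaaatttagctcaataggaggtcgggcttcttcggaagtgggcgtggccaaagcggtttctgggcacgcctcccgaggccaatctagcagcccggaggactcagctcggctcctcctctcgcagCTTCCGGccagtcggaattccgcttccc
Ndufa1 and Ndufs6 encode accessory subunits of complex I, and Sdhd encodes a membrane anchor of complex II. The windows lie at chrX:37191239-37191488 on the minus strand, chr13:73328483-73328732 on the minus strand and chr9:50603850-50604099 on the minus strand. Ndufa1 had no match, Ndufs6 had TGCGCA once, and Sdhd had TGCGCA at 2 places and CCGGAAG on the opposite strand.
Ndufa1: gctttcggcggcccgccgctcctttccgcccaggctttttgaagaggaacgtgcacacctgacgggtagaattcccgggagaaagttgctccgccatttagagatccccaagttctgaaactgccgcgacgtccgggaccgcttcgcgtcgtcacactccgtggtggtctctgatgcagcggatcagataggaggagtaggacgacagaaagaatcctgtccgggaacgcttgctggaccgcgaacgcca
Ndufs6: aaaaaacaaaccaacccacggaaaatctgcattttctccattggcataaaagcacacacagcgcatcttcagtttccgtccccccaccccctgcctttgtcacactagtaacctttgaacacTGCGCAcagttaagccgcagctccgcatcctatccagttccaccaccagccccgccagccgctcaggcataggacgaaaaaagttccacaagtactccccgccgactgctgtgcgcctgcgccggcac
Sdhd: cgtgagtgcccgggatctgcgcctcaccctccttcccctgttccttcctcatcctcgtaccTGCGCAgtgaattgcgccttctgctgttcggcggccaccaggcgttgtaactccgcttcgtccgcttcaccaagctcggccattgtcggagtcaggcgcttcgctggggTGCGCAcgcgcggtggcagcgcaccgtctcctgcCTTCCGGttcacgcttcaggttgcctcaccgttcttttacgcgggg
Over 300 bases that reach 50 bases past the start, 78 windows of 73 members were compared with 32851 windows of the whole table. TGCGCA was in 24.4% of member windows and 7.8% of all, CCGGAAG in 23.1% and 8.9%, and AAGATGG in 12.8% and 6.3%. The shares for AGGTCA were 20.5% and 16.3%, and those for CACGTG 9.0% and 7.2%. These letters describe the windows and do not show that a factor binds.

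Cell identity was checked with marker genes. Against MEFs, 7 of 8 pluripotency markers were higher in the partial line, Zfp42 being the exception at -0.01, and 8 of 8 were higher in full iPS and in J1 cells, while 9 of 10 fibroblast markers were lower in each. Pou5f1 (Oct4) and Sox2 among these markers are also carried by the vectors. Their signal in iPS lines may be vector RNA, which was not tested. As a deviation from the mean of the groups, the pluripotency marker median was -2.46 in the partial line and -3.77 in MEFs. It was 1.12 in EOS3F-28, 1.21 in EOS3F-29, 1.80 in converted cells and 1.82 in J1 cells. The summed fibroblast marker level (log2) was 9.58 to 11.07 in converted cells, 10.18 to 11.79 in the partial line, 10.05 to 11.47 in EOS3F-28, 10.44 to 12.09 in EOS3F-29, 9.93 to 11.12 in J1 cells and 13.48 to 13.67 in MEFs. Replicate 1 had the highest such level in each of the 5 feeder-grown groups, and the calls of named genes that change without those arrays are given after the comparisons. No fibroblast marker was called between feeder-grown groups. RNA of feeder cells, fewer cells of a type and less RNA per cell cannot be told apart in such bulk samples. Array medians lay between 3.92 and 4.11, and arrays of a group correlated at 0.971 to 0.987 over genes.

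Most members moved little. The highest and lowest group mean of a member differed by 0.14 to 1.76, with a median of 0.56, against 0.43 over all genes and 0.75 over genes with a mean of at least 5. Only 7 members (7.9%) spanned 1 or more, against 17.7% of all genes and 32.3% of those with a mean of at least 5. They were Ndufa4l2, Cox7a1, Ndufa1, Cox6b2, Ndufa6, Ndufs6 and Ndufs5. Of these, Cox7a1 (mean 4.49) and Cox6b2 (mean 4.91) lie under 5, where signal close to background limits the differences. The group with the highest mean was the partial line for 31 of the 89 members, J1 for 24, converted cells for 20, EOS3F-29 for 6, EOS3F-28 for 4 and MEFs for 4. MEFs were lowest for 30 members (33.7%, against 34.1% of all genes) and EOS3F-28 for 24 (27.0%, against 14.9%). Over all genes, the highest mean lay in the partial line for 18.1%, in J1 for 20.8% and in MEFs for 24.0%. The median over all members, as a deviation from the mean of the groups, was 0.04 ± 0.07 in converted cells, 0.13 ± 0.09 in the partial line, -0.14 ± 0.06 in EOS3F-28, -0.03 ± 0.03 in EOS3F-29, 0.09 ± 0.13 in J1 cells and -0.12 ± 0.07 in MEFs (SD, n = 3 each). The J1 arrays ran from -0.04 in replicate 2 to 0.22 in replicate 1 and overlapped those of the partial line, converted cells and EOS3F-29. No EOS3F-28, EOS3F-29 or MEF array reached the partial line.

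**Figure D1:**
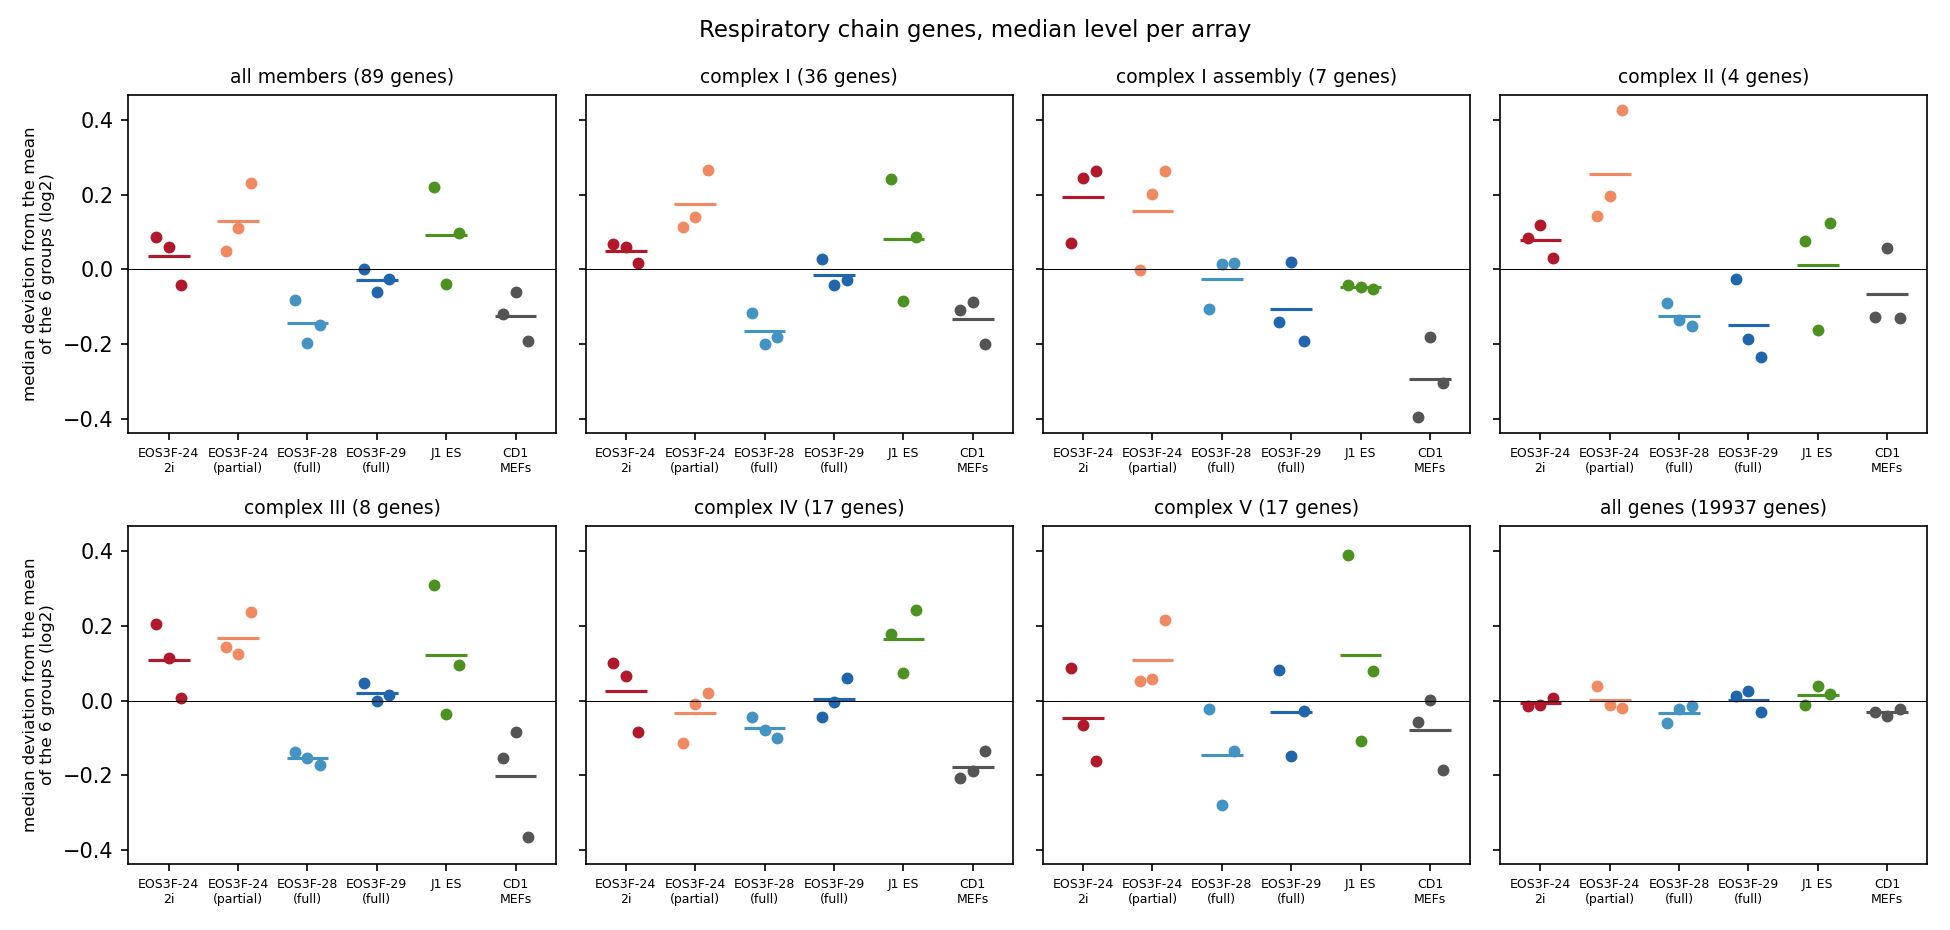
Median deviation of the members from the mean of the 6 groups (log2), for each array (points) and group (bar, mean of 3), for all members, each complex and all genes. The 3 partial arrays sit above 0 and the 3 MEF arrays below 0 over all 89 members, while all genes stay near 0.

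**Figure D2:**
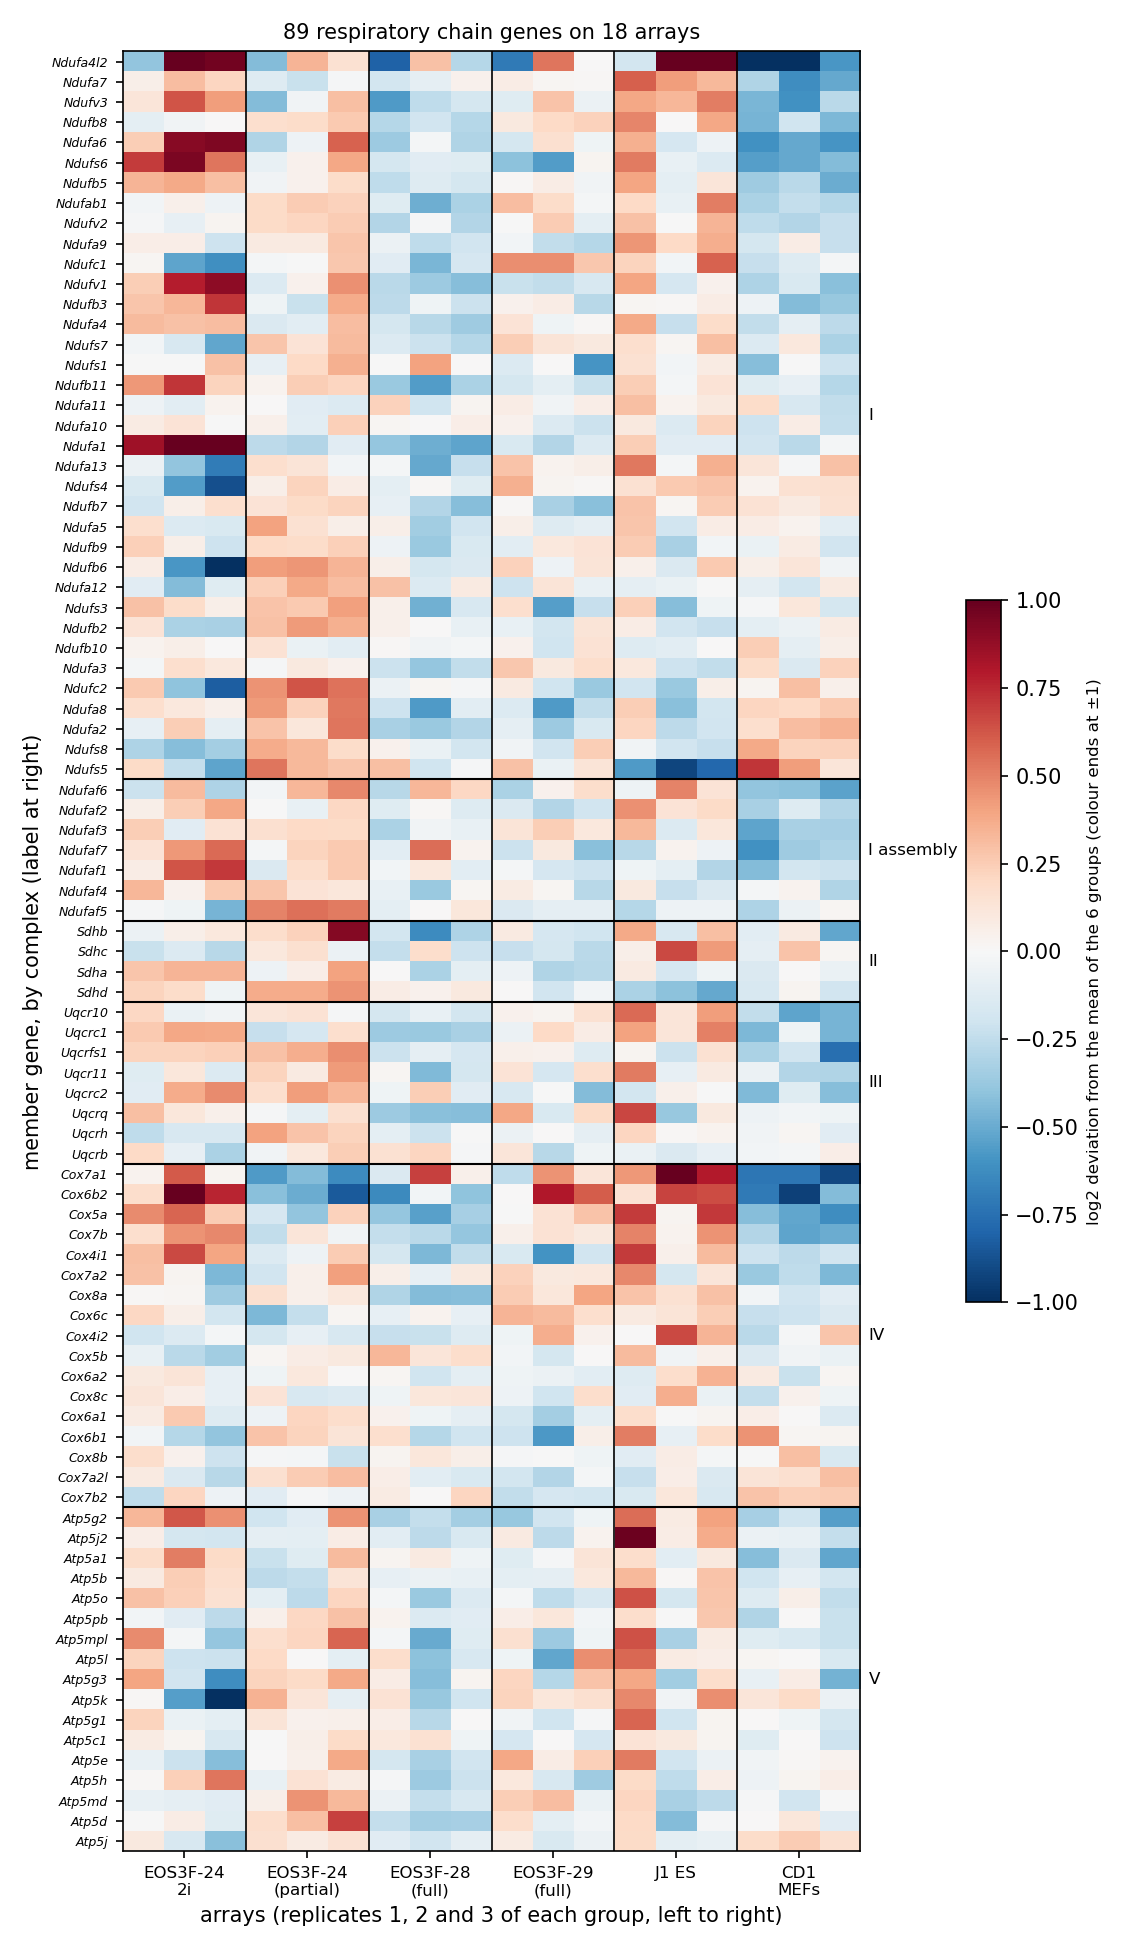
Deviation of each of the 89 members (rows, by complex) from the mean of the 6 groups on each of 18 arrays (columns), on the log2 scale with colours ending at ±1. Ndufa1 stands out in the converted arrays, Ndufs5 in the J1 arrays, and Cox7a1 and Cox6b2 are low in the partial and MEF arrays, with Cox6b2 low in the EOS3F-28 arrays as well.

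The heat map and the medians rest on the between-array scaling of the deposited values. Cyclic loess and a pair of centrings on 12 housekeeping genes were tried beside it. Level centring subtracts the median level of these genes on each array, and deviation centring, chosen after seeing the data, the median of their deviations from their own means. Level centring put the median difference over all genes at 0.22 for partial line against MEFs, 0.45 for full iPS against MEFs, 0.43 for J1 against MEFs, -0.23 for partial against full, -0.20 for converted against partial, -0.44 for converted against full and 0.02 for full against J1 cells. Deviation centring put it at 0.05, 0.19, 0.16, -0.13, 0.04, -0.10 and 0.03 in this order. The housekeeping genes differed between groups themselves, with 9 of 12 called in J1 against MEFs, 6 in full iPS against MEFs and 6 in converted against partial cells.

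Any centring shifts all genes of an array alike, so it leaves the median of the members relative to that of all genes as it is. This relative median was 0.23, 0.01, 0.23, 0.19, -0.09, 0.10 and -0.16 in the same order. Cyclic loess, which can change it, gave 0.15, 0.03, 0.20, 0.08, -0.09, 0.01 and -0.12. With only genes of a mean of at least 5, it was 0.18, 0.11, 0.27, 0.08, -0.04, 0.08 and -0.14. Without J1 replicate 1 the relative median was 0.10 for J1 against MEFs and -0.06 for full against J1 cells, and without EOS3F-28 replicate 1 it was -0.02 for full iPS against MEFs. Directions below are those on the deposited scale.

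The first comparison set the partial line against fibroblasts. Called members of complexes I, II and III were all higher in the partial line, and few were called at complexes IV and V. Called at an adjusted p under 0.05 (limma, Benjamini-Hochberg over all genes) were 22 members higher and 1 lower, or 25.8% of the 89, against 23.7% of all genes. For rises alone the shares were 24.7% of members and 13.7% of all genes, and for falls 1.12% and 10%. Among genes with a mean of at least 5, 24.4% of members and 21.4% of all rose, and 0% and 14.9% fell. The members' median difference was 0.27, against 0.04 over all genes. Arrays of the 2 groups did not overlap for 46 members above and 1 below, against 39.6% of all genes in either direction.

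At complex III, 5 of 8 members rose. Uqcrfs1, the Rieske iron-sulphur protein, had 6.19, 6.26 and 6.37 in the partial line, against 5.58, 5.71 and 5.15 in MEFs. All 3 partial arrays lay above all 3 MEF arrays, and the difference of 0.79 ± 0.13 (SE, n = 3 each) was called (adjusted p = 0.000169). The other 4 were Uqcrc2 (0.64), Uqcr10 (0.50), Uqcr11 (0.46) and the hinge protein gene Uqcrh (0.35). At complex II, Sdhd had 8.04, 8.04 and 8.12 in the partial line and 7.51, 7.69 and 7.48 in MEFs, a rise of 0.51 ± 0.10 (adjusted p = 0.000932). Sdhb, the iron-sulphur subunit, rose by 0.62 ± 0.20 (adjusted p = 0.0284), a call lost without partial replicate 3 (adjusted p = 0.188), whose level of 7.43 exceeds the other partial arrays at 6.69 and 6.74. It was also lost without MEF replicate 1 (0.0547) or replicate 3 (0.153). Neither Sdha (0.21) nor Sdhc was called.

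Of the complex I assembly factors, 4 of 7 rose: Ndufaf5, a hydroxylase acting on a core subunit, had 4.92, 4.97 and 4.94 in the partial line, against 4.11, 4.36 and 4.44 in MEFs. Its arrays were tightly grouped and apart from MEFs (0.64 ± 0.12, adjusted p = 0.000803). Ndufaf6 rose by 0.71 ± 0.20 (adjusted p = 0.0129) but not without partial replicate 3 (adjusted p = 0.0725). Ndufaf7 and Ndufaf3 each rose by 0.58. Of 36 subunit genes of complex I, 9 rose and none fell. Ndufa6, an accessory subunit, showed the largest called rise (0.65 ± 0.21, adjusted p = 0.0316), which was lost without partial replicate 3 (0.206) and without each MEF array (0.0540 to 0.0856). At complex IV only Cox7b rose (0.38), and Cox7b2, a testis form at levels of 2.64 to 2.75 in the partial line and 2.99 to 3.04 in MEFs, fell by 0.32 ± 0.11 (adjusted p = 0.0496). That last call was lost whichever single array was left out (adjusted p 0.0812 to 0.128). Atp5pb alone was called at complex V (0.36).

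Counted again with each array left out in turn, 11 of the 23 calls held every time, all of them rises: Uqcrfs1, Uqcrc2, Uqcr10, Uqcrh, Sdhd, Ndufaf5, Ndufaf3, Ndufb8, Ndufab1, Ndufv2 and Ndufb5. Without partial replicate 3 alone, 11 members were called. Cyclic loess scaling gave 14 calls, all rises. The Cox7b2 fall was not called after deviation centring (adjusted p = 0.204). Second probe sets of Ndufab1 (0.01, adjusted p = 0.983) and Uqcr11 (0.45, 0.103) were not called. Those of Cox7b (0.39, 0.0166) and Atp5pb (0.35, 0.0345) were called.

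In full iPS cells against MEFs, the members were split between rises and falls and centred near 0. Called were 14 higher and 7 lower, 23.6% of members against 35% of all genes (56.1% of those with a mean of at least 5). For rises the shares were 15.7% of members and 17.1% of all genes, and for falls 7.87% and 17.8%. Rises took 66.7% of the calls, but 72.2% after cyclic loess, 92.6% after deviation centring and 100% after level centring. The median difference was 0.04, against 0.03 over all genes. The 3 comparisons with MEFs share the MEF arrays, so their values stand side by side without a measure of overlap.

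The largest rise was at complex IV. Cox7a1 had 4.35, 5.18 and 4.55 in EOS3F-28 and 4.24, 4.94 and 4.61 in EOS3F-29, against 3.77, 3.77 and 3.58 in MEFs. No array of the full lines reached down to the MEF levels, and the difference was 0.94 ± 0.19 (adjusted p = 0.000981). All 3 MEF levels lay below the array medians (3.92 to 4.11), so signal close to background limits this Cox7a1 difference. Its sister Cox7a2 had 6.93, 6.79 and 6.97 in EOS3F-28, 7.10, 6.97 and 6.97 in EOS3F-29, and 6.50, 6.61 and 6.42 in MEFs, a smaller rise of 0.44 ± 0.16 (adjusted p = 0.0360). This Cox7a2 call was lost without 6 of the 9 arrays, EOS3F-29 replicate 1, EOS3F-28 replicates 1 and 3 and each MEF array (adjusted p 0.0530 to 0.127). Cox6b2 rose by 0.75 ± 0.21 (adjusted p = 0.00857), with 4.28, 4.88 and 4.51 in EOS3F-28, 4.92, 5.71 and 5.52 in EOS3F-29 and 4.21, 3.98 and 4.48 in MEFs. EOS3F-28 overlapped MEFs there, and with that line alone the call was lost (adjusted p = 0.343), as it was without MEF replicate 2 (0.0571). Cox7a2l, which takes part in joining complexes III and IV, fell by 0.31 ± 0.10 (adjusted p = 0.0216), a call lost without MEF replicate 3 (0.110) and after deviation centring (0.313). Its second probe set stood at -0.18 (adjusted p = 0.0947).

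At complex I, the falls were Ndufa2 (-0.54 ± 0.12), Ndufa8 (-0.53 ± 0.14), Ndufb7 (-0.38 ± 0.11) and Ndufs8 (-0.31), and the rises Ndufa7 (0.46 ± 0.09), Ndufb8 (0.33) and Ndufb5 (0.29). Ndufa8 had 6.75, 6.39 and 6.85 in EOS3F-28, 6.82, 6.39 and 6.70 in EOS3F-29 and 7.17, 7.16 and 7.21 in MEFs, so that every full array was lower. Ndufb7 stood at -0.23 after deviation centring, not called (adjusted p = 0.104), and at 0.04 after level centring. Ndufaf6 rose by 0.47 ± 0.17 (adjusted p = 0.0380), but was not called without any 1 of 7 arrays, EOS3F-29 replicates 2 and 3, EOS3F-28 replicates 2 and 3 or any MEF array (adjusted p 0.0660 to 0.127). Cox7b2 fell by 0.31 ± 0.10 (adjusted p = 0.0187), though not without MEF replicate 1 (0.0654) or 3 (0.0527) or after deviation centring (0.344). None of the 4 complex II genes was called. The median difference at complex V was 0.01, with Atp5a1, the alpha subunit's gene, higher by 0.38 and Atp5j lower by 0.29.

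Calls that held without each single array numbered 6 of 21: Cox7a1, Ndufa7 and Uqcr10 higher, and Ndufa2, Ndufa8 and Ndufb7 lower. The count was 10 without MEF replicate 1, 14 without replicate 2 and 11 without replicate 3. It was 12 when EOS3F-28 alone stood for the full lines and 23 when EOS3F-29 did.

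J1 cells against MEFs gave the largest number of called members. Of the 89, 29 were higher and 6 lower, 39.3% against 38% of all genes and 60% of genes with a mean of at least 5. The share of rises was 32.6% of members and 20.6% of all genes, and that of falls 6.74% and 17.5%. Among genes with a mean of at least 5, 33.3% of members and 29.2% of all rose, and 6.41% and 30.7% fell. Rises took 82.9% of the calls, 97.4% after deviation centring and 98.2% after level centring. The members' median was 0.28, against 0.06 over all genes. In complex IV, 8 of 17 rose and 2 fell, in complex V 5 of 17 rose and none fell, and in complex I 10 of 36 rose and 3 fell.

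Complex IV held 3 of the 4 largest rises. Cox7a1 had 4.92, 5.69 and 5.28 in J1 cells, against 3.77, 3.77 and 3.58 in MEFs, a 3.02-fold difference (1.59 ± 0.22, adjusted p = 2.32e-05). That fold is taken against MEF levels below the array medians. Cox6b2 had 5.06, 5.59 and 5.57 in J1 cells and 4.21, 3.98 and 4.48 in MEFs (1.18 ± 0.24, adjusted p = 0.000701). Of the widely used sister forms, Cox7a2 rose by 0.50 ± 0.18 (adjusted p = 0.0377) and Cox6b1 stood at 0.04 and was not called. The 8 muscle markers summed to 6.91 to 7.01 in J1 cells and 7.02 to 7.91 in MEFs, so no J1 array exceeded a MEF array in this sum. Cox5a, a subunit close to the catalytic core, had 8.22, 7.55 and 8.23 in J1 cells and 7.10, 7.00 and 6.90 in MEFs (1.00 ± 0.17, adjusted p = 0.000175). Cox4i1, the widely used form of subunit 4, rose by 0.58 ± 0.16 (adjusted p = 0.00793), a call that was just lost without J1 replicate 1 (0.0524). Cox8a rose by 0.35 ± 0.11 (adjusted p = 0.0157) and was not called without J1 replicate 3 (0.0561) or MEF replicate 2 (0.0593).

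Ndufa4l2, a relative of Ndufa4 known as a target of hypoxia signalling, had 5.01, 6.44 and 6.22 in J1 cells and 3.74, 4.06 and 4.61 in MEFs. All J1 arrays were higher, but they spread over more than 1 unit, and the 3.38-fold difference was 1.76 ± 0.45 (adjusted p = 0.00433). In the other comparisons with MEFs it was not called, at 1.08 ± 0.45 for the partial line (adjusted p = 0.0938) and 0.90 ± 0.39 for full iPS cells (adjusted p = 0.0832). Replicate 1 was the lowest array of each feeder-grown group for Ndufa4l2, and it was also the one with the highest fibroblast marker level, whose part in this was not tested. Leaving those 5 arrays out gave adjusted p = 0.000768 for the partial line and 0.000199 for full iPS cells, and leaving out only EOS3F-29 replicate 1 gave 0.0375 for full iPS cells, for which deviation centring gave 0.0312.

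Ndufs5, an accessory subunit of complex I, went the other way. It had 5.26, 4.91 and 5.04 in J1 cells and 6.54, 6.24 and 5.95 in MEFs, 2.26-fold lower in J1 (-1.17 ± 0.18, adjusted p = 5.98e-05). Ndufs8, an iron-sulphur core subunit, fell by 0.43 ± 0.11 (adjusted p = 0.00505, and 0.0936 after deviation centring). The other falls were smaller and each rested on few arrays: Ndufa2 (-0.36, adjusted p = 0.0487), Cox7b2 (-0.33, 0.0287), Sdhd (-0.30, 0.0208) and Cox7a2l (-0.30, 0.0483). With 1 array left out their adjusted p reached 0.197 for Ndufa2, 0.108 for Cox7b2, 0.0991 for Sdhd and 0.163 for Cox7a2l, after deviation centring none of the 4 was called (0.179 to 0.303), and after level centring all 4 stood just above 0. The Cox7a2 call reached 0.183. Of all 35 calls, 20 held without each single array, 18 of them rises. A second probe set of Ndufab1 stood at -0.40 (adjusted p = 0.099), opposite to its called rise of 0.49. That of Cox7a2l stood at -0.09 (0.489).

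**Figure D3:**
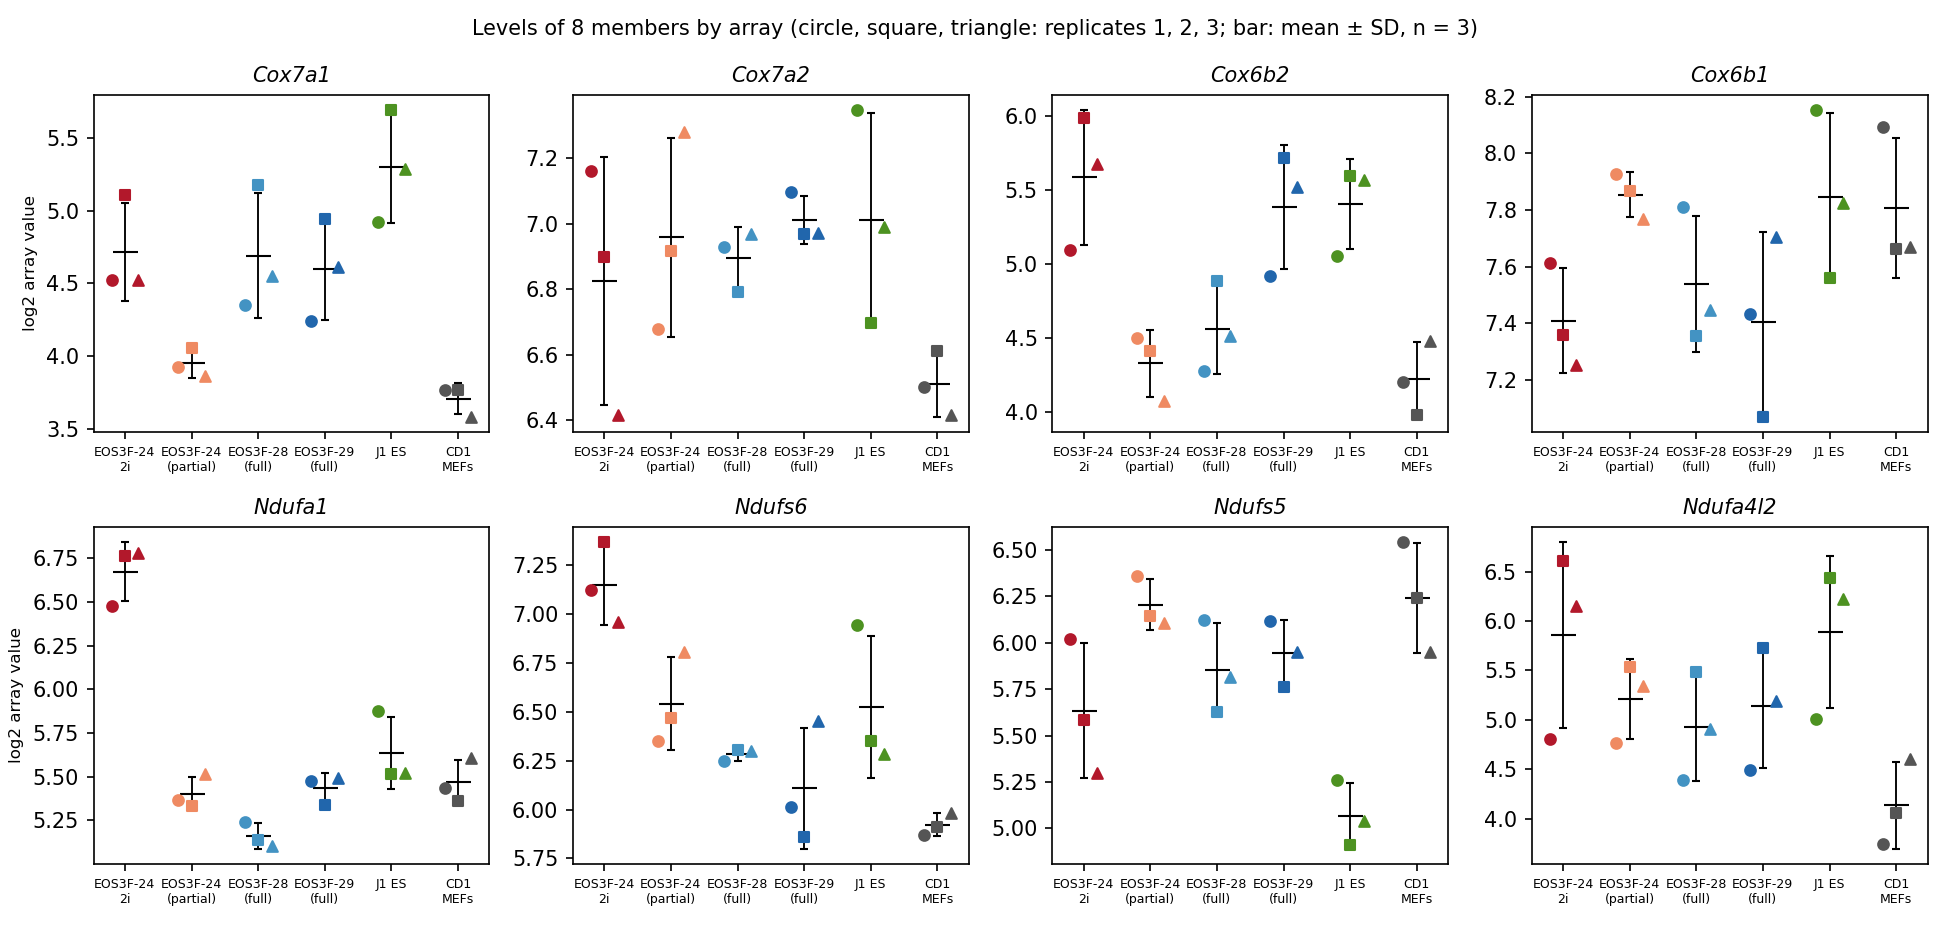
Log2 array values of 8 members by group, with each array as a point and the mean ± SD (n = 3) as a bar. Cox7a1 and Cox6b2 lie low in the partial line and in MEFs, and Cox6b2 also in EOS3F-28, whose arrays overlap those of the partial line. Ndufa1 is highest in converted cells and Ndufs5 lowest in J1 cells.

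The partial line was then set against the fully reprogrammed lines. Called genes of complexes I, II and III were all higher in the partial line, though no rise was called after level centring, and complex IV had calls both ways. Called were 18 higher and 3 lower, 23.6% of members against 18.6% of all genes and 29.1% of genes with a mean of at least 5. The shares were 20.2% of members and 12.8% of all genes for rises, and 3.37% and 5.78% for falls. Among genes with a mean of at least 5, 20.5% of members and 21.9% of all rose, and 1.28% and 7.22% fell. The median difference was 0.19, against 0.01 over all genes. For genes with a mean of at least 5 it was 0.21 in members and 0.13 in all such genes. Rises took 85.7% of the calls and 75% after cyclic loess. Deviation centring left 6 rises and 3 falls, and level centring 3 falls and no rise. Of the 8 pluripotency markers, 1 was higher and 7 were lower in the partial line, and their part in the result was not tested. By complex, 10 of 36 subunit genes of complex I, 3 of 4 of complex II and 2 of 8 of complex III rose with no fall, while complex IV had 1 rise and 3 falls among 17.

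Ndufa8 had 7.38, 7.18 and 7.48 in the partial line, against 6.75, 6.39 and 6.85 in EOS3F-28 and 6.82, 6.39 and 6.70 in EOS3F-29, with no overlap (0.70 ± 0.14, adjusted p = 0.00120). Ndufa2 rose by 0.58 ± 0.12 (adjusted p = 0.00203). Ndufc2, a membrane-arm subunit, rose by 0.63 ± 0.17 (adjusted p = 0.0133), not called without partial replicate 2 (0.0711). Sdhd had 8.04, 8.04 and 8.12 in the partial line, 7.74, 7.71 and 7.76 in EOS3F-28 and 7.67, 7.48 and 7.64 in EOS3F-29, so the partial arrays were highest (0.40 ± 0.09, adjusted p = 0.00270, and 0.113 after deviation centring). Sdhb rose by 0.67 ± 0.17 (adjusted p = 0.00895), a call lost without partial replicate 3 (0.0987). Sdha rose by 0.31 ± 0.11 (adjusted p = 0.0475), which did not hold without replicate 2 or 3 of any of these lines (0.0640 to 0.331) or after deviation centring (0.274). Sdhc differed by 0.23 and was not called.

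Among the falls, Cox7a1 had 3.93, 4.06 and 3.87 in the partial line, below all 6 arrays of the full lines, the lowest of which was 4.24 (-0.69 ± 0.19, adjusted p = 0.0173). It was not called without partial replicate 1 (0.0571) or 3 (0.0758). Cox6b2 fell by 0.64 ± 0.21 (adjusted p = 0.0374), and leaving out any 1 of 7 arrays, all but replicate 1 of each full line, ended that call (0.0534 to 0.185). With EOS3F-28 alone as the full line the adjusted p was 0.617. Cox6c fell by 0.34 ± 0.10 (adjusted p = 0.0278), and was not called without partial replicate 1 (0.201) or 2 (0.101) or without replicate 2 of EOS3F-29 (0.0514) or of EOS3F-28 (0.0562). Cox7a2l rose by 0.36 ± 0.10 (adjusted p = 0.0171), but not without partial replicate 2 (0.0693) or 3 (0.0849) or after deviation centring (0.239). Held without each single array were 8 of the 21 calls, all rises: Ndufa8, Ndufa2, Ndufaf5, Uqcrfs1, Ndufb11, Ndufb7, Sdhd and Uqcrh. The count was 11 without partial replicate 2 and 11 without replicate 3, and 12 when EOS3F-29 alone stood for the full lines. Second probe sets of Ndufb11 (0.20, adjusted p = 0.170) and Cox6c (-0.21, 0.185) were not called, while that of Cox7a2l was (0.37, 0.00342).

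Between converted EOS3F-24 and the partial line, members differed in both directions. Puromycin is listed for the partial line only, so 2i and the lack of selection cannot be told apart here. Of the 89, 10 were higher and 14 lower in converted cells, 27% against 22.4% of all genes and 36.6% of those with a mean of at least 5. Rises were 11.2% of members and 9.36% of all genes, and falls 15.7% and 13%. Among genes with a mean of at least 5, 10.3% of members and 15% of all rose, and 15.4% and 21.6% fell. The median difference was -0.09, against 0.00 over all genes. Rises took 41.7% of the calls, 47.6% after deviation centring, and level centring gave 2 rises and 13 falls. Of the 8 pluripotency markers, 7 were higher and 1 was lower in converted cells, and their part in the result was not tested. Complex I split into 5 rises and 9 falls of 36, whereas complex IV had 4 rises and 1 fall of 17. Only 2 called members passed 2-fold, Ndufa1 and Cox6b2, both higher. Equal replicate numbers passed the pairing check described below, with correlations of 0.383, 0.140 and 0.122. With the number as a block 33 members were called, 15 higher and 18 lower. The block called 29.3% of all genes in this comparison.

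Ndufa1 had 6.48, 6.76 and 6.78 in converted cells, against 5.36, 5.33 and 5.51 in the partial line. All converted arrays lay well above every other array of the series, of which the highest was 5.87 in J1, and the difference was 1.27 ± 0.12 (2.41-fold, adjusted p = 3.74e-07). Ndufs6, a zinc-binding accessory subunit, had 7.12, 7.37 and 6.96 in converted cells and 6.35, 6.47 and 6.81 in the partial line, which did not overlap (0.61 ± 0.17, adjusted p = 0.0168). Ndufa6 rose by 0.62 ± 0.21 (adjusted p = 0.0415), a call lost without converted replicate 2 (0.170) or 3 (0.174) or partial replicate 1 (0.209) or 2 (0.140).

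The largest complex I falls were in membrane-arm subunits. Ndufb6 had 8.12, 7.46 and 7.00 in converted cells and 8.47, 8.49 and 8.38 in the partial line, a difference of -0.92 ± 0.19 (adjusted p = 0.00167). The converted arrays spread over more than 1 unit, all below the partial arrays. Ndufc2 was also lower on every converted array, with 7.36, 6.69 and 6.27 in converted cells and 7.55, 7.73 and 7.64 in the partial line (-0.87 ± 0.20, adjusted p = 0.00334). Ndufs8 and Ndufs4 each fell by 0.65. Ndufaf5 had 4.41, 4.38 and 3.96 in converted cells and 4.92, 4.97 and 4.94 in the partial line (-0.69 ± 0.12, adjusted p = 0.000402). Uqcrh of complex III fell by 0.49, while the core protein gene Uqcrc1 rose by 0.42. At complex V, Atp5k fell by 0.66 ± 0.21 (adjusted p = 0.0313), which rested on converted replicate 3 at 5.12 and was lost without converted replicate 2 (0.0861) or 3 (0.206) or partial replicate 1 (0.129) or 2 (0.0788). Ndufa7 (0.32) and Atp5pb (-0.32) were called without the block and not with it (adjusted p = 0.0576 and 0.0666). A second probe set of Atp5pb was not called (-0.14, adjusted p = 0.457), while those of Cox7a2l (-0.34, 0.0135) and Cox7b (0.43, 0.00818) were.

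In complex IV, Cox6b2 had 5.09, 5.98 and 5.68 in converted cells, against 4.50, 4.42 and 4.07 in the partial line (1.25 ± 0.24, 2.39-fold, adjusted p = 0.000832). Cox7a1 had 4.53, 5.10 and 4.52 in converted cells and 3.93, 4.06 and 3.87 in the partial line, again without overlap (0.77 ± 0.22, adjusted p = 0.0190), but was not called without converted replicate 2 (0.121) or partial replicate 1 (0.0524) or 3 (0.0610). Their sisters were lower or near 0: Cox6b1 stood at -0.45 (adjusted p = 0.0873, and 0.00775 with the block) and Cox7a2 at -0.13. Cox5a rose by 0.55 and Cox7b by 0.42. Cox4i1 stood at 0.43 (adjusted p = 0.0649, and 0.0202 with the block), and it was called without partial replicate 3 (0.0362) and after deviation centring (0.0366). Cox7a2l fell by 0.35 ± 0.11 (adjusted p = 0.0340), but not without converted replicate 2 (0.105) or 3 (0.168) or partial replicate 2 (0.0921) or 3 (0.106), nor after deviation centring (0.148). At complex II none was called without the block. Sdhb stood at -0.41 (adjusted p = 0.166, and 0.0369 with the block), and Sdhd at -0.28 (0.0523), called without converted replicate 1 (0.0406). Ndufa4l2 stood at 0.64 (adjusted p = 0.373, and 0.00850 with the block), with 4.80, 6.61 and 6.16 in converted cells and 4.76, 5.53 and 5.35 in the partial line.

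**Figure D4:**
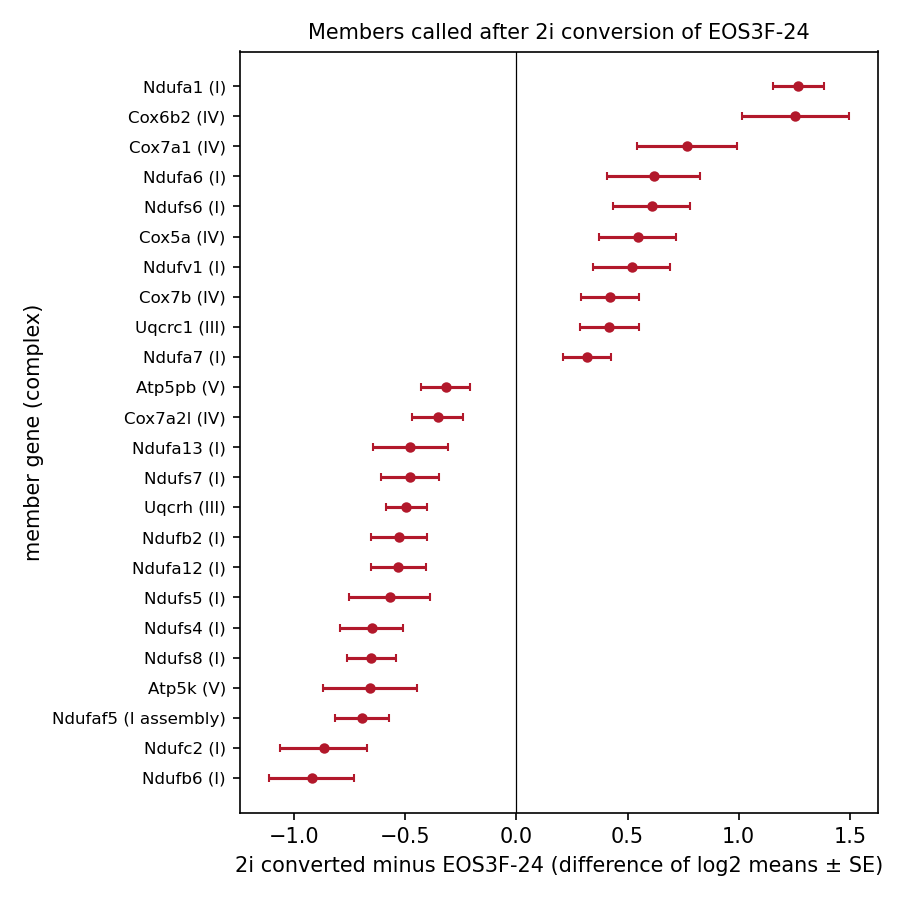
Differences of log2 means, converted EOS3F-24 minus partial EOS3F-24, with SE, for the 24 members called. The 10 rises are led by Ndufa1 and Cox6b2, and the 14 falls by Ndufb6 and Ndufc2.

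Held without each single array were 10 of the 24 calls: Ndufa1 and Cox6b2 higher, and Ndufb6, Ndufc2, Ndufaf5, Ndufs8, Ndufs4, Ndufa12, Ndufb2 and Uqcrh lower. The balance of rises and falls moved with single arrays. Without converted replicate 2 there were 2 rises and 9 falls, without converted replicate 3 there were 6 and 8, and without converted replicate 1 there were 11 and 19. Without partial replicate 1 there were 2 rises and 13 falls, without partial replicate 2 there were 4 and 9, and without partial replicate 3 there were 16 and 11.

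Converted cells differed from full iPS cells in fewer genes, and all but 1 of the called members were higher in converted cells, though after level centring most calls were lower. Of these groups, puromycin is listed for the full lines only. Called were 16 higher and 1 lower, 19.1% of members against 5.16% of all genes and 10.2% of those with a mean of at least 5. Rises were 18% of members and 3.96% of all genes, and falls 1.12% and 1.2%. The median difference was 0.10, against 0.00 over all genes. Rises took 94.1% of the calls, 70.6% after cyclic loess, 61.5% after deviation centring (8 rises and 5 falls) and 9.09% after level centring, where 3 members were called higher and 30 lower. Level centring called 49.4% of all genes in this comparison. Marker genes moved with this comparison: 4 of 8 pluripotency markers were called higher in converted cells (median of the list 0.69) and none lower, while the fibroblast markers had a median of -0.44 with none called. Their part in the result was not tested. Complex I had 8 rises and 1 fall of 36, its assembly factors 2 rises of 7, complex IV 3 of 17, and complexes II, III and V 1 each.

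Ndufa1 had 6.48, 6.76 and 6.78 in converted cells, against 5.24, 5.14 and 5.10 in EOS3F-28 and 5.47, 5.34 and 5.49 in EOS3F-29 (1.37 ± 0.10, 2.59-fold, adjusted p = 3.60e-07). It was the only called member past 2-fold. Ndufs6 had 7.12, 7.37 and 6.96 in converted cells, 6.25, 6.31 and 6.30 in EOS3F-28 and 6.01, 5.86 and 6.45 in EOS3F-29 (0.95 ± 0.15, adjusted p = 0.00129). Ndufv1, the flavin-binding subunit that takes electrons from NADH, had 7.58, 8.12 and 8.23 in converted cells, 7.07, 6.98 and 6.91 in EOS3F-28 and 7.11, 7.09 and 7.18 in EOS3F-29 (0.92 ± 0.15, adjusted p = 0.00159). Converted arrays were above all full arrays for each of these genes. Ndufa6 rose by 0.82 ± 0.18 (adjusted p = 0.0124), a call lost without converted replicate 2 (0.109) or 3 (0.111). Ndufs4, an accessory subunit, was the single fall (-0.56 ± 0.12, adjusted p = 0.0114), also lost without converted replicate 2 (0.0740) or 3 (0.119).

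Cox4i1 had 7.72, 8.08 and 7.81 in converted cells, 7.25, 6.97 and 7.17 in EOS3F-28 and 7.27, 6.82 and 7.23 in EOS3F-29, a rise of 0.75 ± 0.14 (adjusted p = 0.00381). Cox6b2, at 0.61, was not called (adjusted p = 0.107), but it was called without converted replicate 1 (0.0241) and, with EOS3F-28 alone as the full line, at 0.0180. Cox7a1 at 0.07 was not called. Sdha, the flavoprotein of complex II, rose by 0.49 ± 0.11 (adjusted p = 0.0104), but not without converted replicate 2 (0.0683) or 3 (0.0649). Ndufa4l2, at 0.82, was called without converted replicate 1 (0.0434). Calls that held without each single array were 5 of 17: Ndufa1, Ndufs6, Ndufv1, Ndufb11 and Cox4i1. Without converted replicate 2, 5 members were called, and without replicate 3, 6. Against EOS3F-29 alone there were 11.

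Full iPS cells against J1 cells gave mostly lower members in the iPS lines. Here too, puromycin is listed for the full lines only. Called were 2 higher and 14 lower, 18% of members against 4.76% of all genes and 8.26% of those with a mean of at least 5. Rises were 2.25% of members and 1.29% of all genes, and falls 15.7% and 3.47%. The median difference was -0.18, against -0.02 over all genes, and 15 of 89 members had a difference above 0. Rises took 12.5% of the calls. Cyclic loess left 2 rises and 9 falls, deviation centring 2 rises and 5 falls, and level centring 1 call, a rise. Of the 8 pluripotency markers, 3 were called lower in full iPS cells (median -0.65) and none higher, while the fibroblast markers had a median of 0.43 with none called. Their part in the result was not tested. All complexes had called falls: 5 of 36 in complex I, 1 of 7 assembly factors, 1 of 4 in complex II, 2 of 8 in complex III, 3 of 17 in complex IV and 2 of 17 in complex V.

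Cox4i1 had 7.25, 6.97 and 7.17 in EOS3F-28 and 7.27, 6.82 and 7.23 in EOS3F-29, against 8.12, 7.47 and 7.73 in J1 cells. The lowest J1 array was above every iPS array (-0.66 ± 0.14, adjusted p = 0.0100), yet the call was lost without J1 replicate 1 (0.0615) or 3 (0.0526). Cox5a (-0.62 ± 0.15, adjusted p = 0.0239) was lost without J1 replicate 1 (0.104) or 3 (0.192). Atp5g2, which encodes the membrane c-subunit of complex V, stood at -0.60 ± 0.14 (adjusted p = 0.0181) and Atp5j2, another membrane subunit, at -0.59 ± 0.14 (0.0254). These were lost without J1 replicate 1 (0.0864 and 0.124) or 3 (0.113 and 0.0799). Other probe sets of Atp5g2 stood at -0.13 (adjusted p = 0.748) and -0.33 (0.403) and were not called. Sdhc, the other membrane anchor of complex II, stood at -0.54 ± 0.12 (adjusted p = 0.0172), lost without J1 replicate 2 (0.118) or 3 (0.106) and after deviation centring (0.0793).

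Ndufs5 was higher in the iPS lines, with 6.13, 5.63 and 5.81 in EOS3F-28 and 6.12, 5.76 and 5.95 in EOS3F-29, against 5.26, 4.91 and 5.04 in J1 cells (0.83 ± 0.16, adjusted p = 0.00479). All iPS arrays lay above all J1 arrays. Sdhd was higher too, at 7.74, 7.71 and 7.76 in EOS3F-28 and 7.67, 7.48 and 7.64 in EOS3F-29, against 7.35, 7.26 and 7.16 in J1 cells (0.41 ± 0.09, adjusted p = 0.00871), a call lost without J1 replicate 3 (0.0864). Cox7a1 at -0.66 was not called (adjusted p = 0.0652), but was without J1 replicate 1 (0.0332), EOS3F-29 replicate 2 (0.0319) or EOS3F-28 replicate 2 (0.0187). Cox4i2, a lung form at -0.37, was called without J1 replicate 1 (0.0344). Only Ndufs5 higher and Ndufa9 and Ndufa7 lower held without each single array. The count was 7 without J1 replicate 1, 3 without J1 replicate 3, 7 without the replicate 1 arrays of the feeder-grown groups, 5 when EOS3F-29 alone stood for the full lines and 8 with only these groups in the fit.

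Between the 2 full lines, EOS3F-28 and EOS3F-29, 1 member of 89 was called, 1.12% against 0.532% of all genes, of which 0.301% were higher and 0.231% lower in EOS3F-28. Cox8a, the widely used form of subunit 8, had 7.34, 7.21 and 7.22 in EOS3F-28, against 7.90, 7.76 and 8.04 in EOS3F-29 (-0.65 ± 0.11, adjusted p = 0.00930). The call was lost without EOS3F-29 replicate 3 (0.0559) or EOS3F-28 replicate 2 (0.0529) or 3 (0.0552). A second probe set of Ndufs3 was called lower in EOS3F-28 (-0.84, adjusted p = 0.0126), while the one that stands for the gene stood at 0.01. The members' median was -0.10, against -0.04 over all genes. Equal replicate numbers passed the pairing check described below. With the number as a block 5 members were called, all lower in EOS3F-28: Cox8a (adjusted p = 0.00982), Cox6b2 (-0.82, 0.00164), Ndufc1 (-0.65, 0.0142), Cox5a (-0.56, 0.0253) and Uqcrq (-0.54, 0.0418). The block called 1.91% of all genes.

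**Figure D5:**
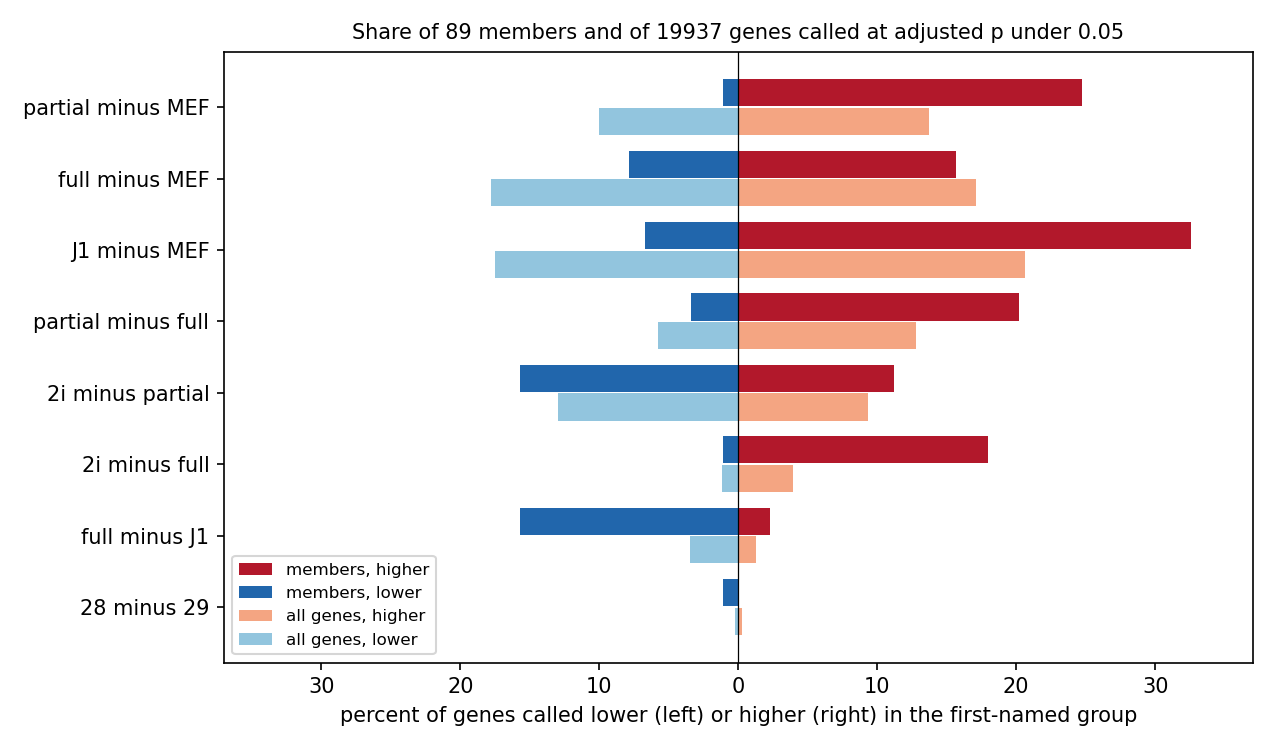
Percent of the 89 members (dark) and of all 19937 genes (light) called higher (right) or lower (left) in the first-named group of each comparison. Members exceed all genes among rises in every comparison but full minus MEF and 28 minus 29. They exceed them among falls in converted (2i) minus partial, full minus J1 and, by 1 member, 28 minus 29. Among genes with a mean of at least 5, rises in partial minus full were 20.5% of members and 21.9% of all. Rises there were 24.4% and 21.4% in partial minus MEF, 33.3% and 29.2% in J1 minus MEF and 10.3% and 15% in converted minus partial. In converted minus full they were 20.5% and 8.49%. Falls at this level were 15.4% and 21.6% in converted minus partial and 17.9% and 6.23% in full minus J1. After level centring partial minus full had no rise, most calls of converted minus full were lower and full minus J1 had 1 call, higher.

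Of the isoform genes not described above, Cox8b, a muscle form, lay between 3.15 and 3.67 on the 18 arrays, Cox8c, a testis form, between 3.96 and 4.56, and Cox6a2, a muscle form, no higher than 4.57. In the fits of all 18 arrays on the deposited scale without a block, none of them was called in any of the 8 comparisons, and neither were Cox6a1, the widely used sister of Cox6a2, Cox4i2 and Cox6b1. Other settings called some of these genes, such as Cox6b1 in converted against partial cells with the block and, after level centring, Cox4i2 in J1 against MEFs (0.71, adjusted p = 0.00950).

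Without the replicate 1 arrays of the feeder-grown groups, which have the highest fibroblast marker levels, conversion gave 7 rises and 21 falls among members. In full iPS against J1 cells the calls of Cox5a (adjusted p = 0.224), Atp5g2 (0.159) and Atp5j2 (0.123) were lost. In J1 against MEFs Cox7a2 (0.115), Cox8a (0.0631), Cox7b2 (0.0932) and Cox7a2l (0.154) were lost, and rises of Cox4i2 (0.50, 0.0207) and Sdhc (0.47, 0.0203) were gained. In the partial line against MEFs Cox7b2 (0.115) was lost and Cox7a2 (0.59, 0.0119) gained. Against full iPS cells the partial line lost Cox6c (0.241) and gained Cox4i1 (0.47, 0.0288). Cox6b1 became a fall in full iPS cells against MEFs (-0.41, 0.0388). Cox6b2 was called higher in converted than in full iPS cells (0.67, 0.0232). Between the full lines Cox8a was lost (0.0564) and Cox6b2 gained (-0.92, 0.0395). Ndufa4l2 was then also called higher in converted cells than in the partial line (0.94, 0.0168) and in full iPS cells (1.05, 0.0137), and lower in full iPS than in J1 cells (0.0253).

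Other genes of the same pathway were counted in the same fits. Over all genes the shares called higher and lower were 13.7% and 10% in the partial line against MEFs, 17.1% and 17.8% in full iPS cells against MEFs, 20.6% and 17.5% in J1 cells against MEFs, 12.8% and 5.78% in the partial line against full iPS cells, 9.36% and 13% in converted against partial cells and 3.96% and 1.2% in converted against full iPS cells. Of 23 measured genes for cytochrome c and the assembly of complexes III and IV, 11 were higher and 1 lower in the partial line against MEFs, 2 higher and 2 lower in full iPS cells against MEFs and 5 higher and 1 lower in J1 cells against MEFs. The partial line had 10 higher and none lower than full iPS cells, but 6 higher after deviation centring and none after level centring. Converted cells had none higher and 5 lower than the partial line, and 3 higher and none lower than full iPS cells, where deviation centring left none. Cycs, cytochrome c itself, was 0.60 ± 0.18 higher in the partial line than in MEFs (adjusted p = 0.0237), and 0.74 ± 0.16 higher than in full iPS cells (0.00288). In converted cells it stood at -0.91 ± 0.18 against the partial line (0.00137). The largest rise against MEFs was Higd1a at 0.83 ± 0.19 (0.00362).

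Of 13 citrate cycle genes, 8 rose and none fell in the partial line against full iPS cells, led by Suclg2, a succinyl-CoA ligase subunit, at 0.92 ± 0.19 (adjusted p = 0.00174). Deviation centring gave 4 rises and level centring 1. Against MEFs the partial line had 5 rises and 1 fall, full iPS cells 1 rise and 3 falls, and J1 cells 3 rises and 1 fall. In converted against partial cells 2 rose and 5 fell, with Suclg2 at -1.22 ± 0.21 (0.000399) and Idh2 at 0.79 ± 0.26 (0.0319). In converted against full iPS cells 5 rose, Idh3g most (0.96 ± 0.13, 0.000384), and none fell; deviation centring gave 2 rises, and level centring 1 rise and 4 falls. Of 19 genes for mitochondrial biogenesis and mitochondrial DNA transcription, 9 rose and 1 fell in J1 cells against MEFs, led by the rRNA methyltransferase gene Tfb1m at 1.43 ± 0.17 (2.98e-06). The partial line had 5 rises and no fall against MEFs, and full iPS cells 5 rises and 2 falls. There were 4 rises and 2 falls in the partial line against full iPS cells, 4 and 2 in converted against partial cells and 2 and 0 in converted against full iPS cells. Of 16 genes for pyruvate entry and uncoupling, 4 rose and 2 fell in the partial line, 3 rose and 3 fell in full iPS cells and 4 rose and 1 fell in J1 cells against MEFs. Pdk1, a kinase that restrains pyruvate dehydrogenase, was higher than in MEFs in the partial line (1.40 ± 0.28), in full iPS cells (1.84 ± 0.24) and in J1 cells (2.55 ± 0.28). In this list 4 rose and 1 fell in the partial line against full iPS cells, 4 rose and 3 fell in converted against partial cells, and 1 rose in converted against full iPS cells. Slc25a4, an ADP/ATP carrier, fell in converted against partial cells (-1.36 ± 0.24, adjusted p = 0.000390), while its relative Slc25a5 rose (0.76 ± 0.12, 0.000189). Mpc1 of the mitochondrial pyruvate carrier was 1.07 ± 0.12 higher in the partial line than in full iPS cells (4.08e-06). In full iPS against J1 cells, these 4 lists held 1 called rise (Suclg1, 0.44 ± 0.12, adjusted p = 0.0408) and 1 called fall (Pdk3, -0.45 ± 0.13, 0.0494).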

How the data were processed

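The authors deposited 1 log2 value for each probe set and array, computed with RMA per the submitters' processing notes. RMA corrects background, gives arrays a like distribution and summarises probes, which removes any shift shared by most genes and compresses differences near background. Neither its version nor a genome build is given in the sources used here. Of 34760 probe sets, 21640 had 1 symbol in the platform annotation, 1321 several and 11799 none. The 89 members have 113 probe sets, 17 members have more than 1, and 4 further symbols of the rule occur only in probe sets with several symbols and were not used. A call rests on the probe set used, and other probe sets of the gene shared it in some cases only. All 89 members matched a RefSeq gene by its identifier, and 78 have a mean of at least 5. The number of arrays limits the precision, and no depth applies.

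Titles gave each array's group and replicate number. limma 3.58.1 in R 4.3.3 (lmFit, eBayes) was fitted to all 18 arrays with 1 mean per group, and 8 contrasts were taken, full iPS cells being the mean of both lines. A gene counts as called where its p, adjusted by Benjamini-Hochberg over 19937 genes, is under 0.05, and the procedure was tested on simulated data. A ± value is the SE of the difference where SD is not named. Members, gene lists and tests were chosen with earlier results of these data known, and no list was tested as a set. Named genes are the 4 largest called rises and 4 largest called falls per comparison, and the complex IV isoform, Sdh and Ndufa4l2 genes whether called or not, with the largest called rise and fall of each other list. Other genes named, among them Cycs and the further members given by their difference alone, were chosen after their values were seen.

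To see whether replicate numbers pair arrays, deviations from the group means were correlated between arrays of equal number. Each of the 3 correlations exceeded 0.1 for EOS3F-28 against EOS3F-29 (0.542, 0.639 and 0.149) and for converted against partial cells (0.383, 0.140 and 0.122), and in no other comparison. This pairing comes from the values, not the labels, and enters only through the replicate block. Arrays of unequal number were not correlated, so the check cannot show that arrays of equal number were handled together. Some comparisons that failed it had higher correlations for replicates 1 and 2, such as 0.579 and 0.484 for converted cells against EOS3F-29. Alternatives were the groups compared alone, a trended robust variance, cyclic loess, centring on the median level of 12 housekeeping genes (of 15 listed), no dim genes, the mean of probe sets, all probe sets, the block, either full line alone, each array left out, and, chosen after seeing the data, no replicate 1 arrays of feeder-grown groups and centring on the housekeeping genes' deviations.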

Additional observations from a re-analysis of the deposited data

Results flagged for a closer look

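Cox8a, the widely used form of complex IV subunit 8, differed between the 2 fully reprogrammed lines, which carry the same vectors. In the fit of all 18 arrays without a block it was the only member called by the probe set that stands for it. A second probe set of Ndufs3 was called lower in EOS3F-28 (-0.84, limma adjusted p = 0.0126). With the replicate number as a block, Cox6b2, Ndufc1, Cox5a and Uqcrq were called lower in EOS3F-28 as well. For Cox8a, EOS3F-28 minus EOS3F-29 was -0.65 ± 0.11 on the log2 scale (limma, adjusted p = 0.00930), with all 3 EOS3F-28 arrays below all 3 EOS3F-29 arrays. With only these lines in the fit the adjusted p was 0.0962, over the leave-one-out fits it reached 0.0559, and without the replicate 1 arrays of the feeder-grown groups it was 0.0564.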

How the results depend on the processing

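Cyclic loess changed the count of called members to 14 for partial line against MEFs and 12 for partial against full iPS cells. Of all genes it called 23.7% and 17.2%. Centring on the median level of the housekeeping genes gave 46 for full iPS against MEFs, 56 for J1 against MEFs, 3 for partial against full, 15 for converted against partial, 33 for converted against full, 1 for full against J1 and 0 for EOS3F-28 against EOS3F-29. Level centring called 60.5%, 44.8%, 9.97%, 16.6%, 49.4%, 1.6% and 0.381% of all genes in this order, so the counts moved for all genes as well. Among the genes named by rule it turned the sign of a called difference in full iPS against MEFs for Ndufb7 (0.0358), Cox7b2 (0.1105) and Cox7a2l (0.1111), and in J1 against MEFs for Ndufa2 (0.0184), Cox7b2 (0.0494), Cox7a2l (0.0757) and Sdhd (0.0724). Of the other members called before, it turned Atp5j and Ndufs8 in full iPS against MEFs and Ndufaf2 and Ndufb5 in converted against full iPS cells. Called or not, it turned 8 to 43 members in each comparison but EOS3F-28 against EOS3F-29 (1), and deviation centring turned 0 to 24, none of them called. Deviation centring gave 9 for partial against full (14.9% of all genes) and 7 for full against J1 (3% of all genes). With only the groups compared, the count was 8 for full against J1 (2.61% of all genes) and 0 for EOS3F-28 against EOS3F-29 (0.231%). The replicate block gave 27 for converted against full, 26 for full against J1 and 5 for EOS3F-28 against EOS3F-29, and 29 for partial against full. Its shares of all genes were 10.6%, 10.4%, 1.91% and 22.7% in this order. In converted against full, partial against full and full against J1 cells the numbers pair the arrays only in part. Among the genes named for converted against partial cells and EOS3F-28 against EOS3F-29, the block changed no call other than those given beside the results. EOS3F-28 as the only full line gave 12 for full against MEFs (29.8% of all genes). EOS3F-29 as the only full line gave 12 for partial against full (15.6% of all genes), 11 for converted against full (2.47%) and 5 for full against J1 (1.88%). Leaving out each array in turn gave 11 to 30 for partial against MEFs, 10 to 22 for full against MEFs, 24 to 38 for J1 against MEFs, 11 to 23 for partial against full, 11 to 30 for converted against partial, 5 to 25 for converted against full, 3 to 18 for full against J1 and 0 to 1 for EOS3F-28 against EOS3F-29. Of all genes these fits called 17.4% to 22.5%, 29.1% to 36.6%, 32.2% to 37.4%, 11.9% to 22.1%, 16.1% to 22.4%, 1.76% to 5.85%, 1.52% to 5.92% and 0.216% to 0.512% in this order. Without the replicate 1 arrays of the feeder-grown groups, full against J1 had 7 (3.37% of all genes). The causes were not tested. The other 111 recomputed counts stayed within 1.5 times. Signal close to background limits the 11 members with a mean under 5. They are Cox7a1, Cox6b2, Cox7b2, Cox4i2, Cox6a2, Cox8b, Cox8c, Ndufaf5, Ndufaf6, Ndufb2 and Ndufb10.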

Other observations

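The 3 X-linked members, Ndufa1, Ndufb11 and Cox7b, were all called higher in converted cells than in full iPS cells, by 1.37, 0.75 and 0.47. They were looked at together after their values were seen. Of 739 measured X-linked genes, 11.5% were called higher and 1.49% lower in that comparison, against 3.69% and 1.19% on other chromosomes. In converted against partial cells the X-linked shares were 16.4% higher and 9.61% lower, against 9.11% and 13.2% elsewhere. Xist, the RNA of the silenced X chromosome, had 5.21, 4.74 and 4.71 in converted cells, 6.82, 7.15 and 7.16 in the partial line, 5.42, 5.11 and 5.10 in EOS3F-28, 6.12, 5.29 and 4.90 in EOS3F-29, 4.85, 4.56 and 4.51 in J1 cells and 6.89, 7.13 and 6.70 in MEFs. The Y-linked Eif2s3y had 3.98, 3.38 and 3.59 in converted cells and 4.27, 3.97 and 3.82 in the partial line, below the 5.35 to 6.49 of the other groups. The relation of these levels to the 3 members was not tested.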
